A study of Homo sapiens with 6 samples.

Results

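The 56 genes described here encode the kinetochore, the spindle checkpoint and other machinery of mitosis. They were taken by gene symbol from the deposited transcript tables, which hold 60607 genes, and the estimated counts of their transcripts were summed per gene and per transcript type. The kinetochore is the protein assembly that forms on the centromere of each chromosome and binds the microtubules of the spindle, with an inner layer on the centromeric chromatin and an outer layer that grips the microtubule. While a kinetochore is unattached, the spindle checkpoint keeps CDC20 from activating the anaphase-promoting complex, and anaphase waits. Transcripts of most of these genes build up in G2 and mitosis under the DREAM, MYBL2 and FOXM1 regulators, and their level in a culture follows how many of its cells divide.

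The cells were PLC/PRF/5, an established human hepatocellular carcinoma line. They were transfected with siRNAs against SLU7 (siSLU7, 3 libraries) or with siGL2, an unrelated siRNA used as negative control (3 libraries), and RNA was taken after 48 h. SLU7 is a splicing factor of the second catalytic step, in which the exons are joined at the 3′ splice site, and the title of the series asks what less of it does to mRNA transcripts. PolyA RNA was sequenced and assigned to transcripts. The labels call the transfections triplicates and say no more, so the p-values speak for the spread of these samples alone, and that spread may be technical. SLU7 protein is not among the data used here, and the cells are of a single line.

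The siSLU7 libraries held 5191452 to 6315740 estimated counts and the siGL2 libraries 7736584 to 8693977. Mitochondrial ribosomal RNA took 29.9% to 35.3% of the counts in siSLU7 and 16.8% to 24.1% in siGL2, and 7SL RNA took 7.69% to 10.1% in siSLU7 and 14.8% to 22.02% in siGL2. Replicate 3 of siSLU7 and replicate 1 of siGL2 differed from their own groups in a shared way. Their deviations from the group means correlated across genes (r = 0.44). Deviations within a group sum to 0, so the pairs are not independent. Replicate 1 of siSLU7 correlated with siGL2 replicate 3 (r = 0.38) and replicate 2 (r = 0.24). The secreted liver protein SERPINA1 had 12160 TPM (a length-corrected relative abundance) in siSLU7 replicate 3 and 12200 TPM in siGL2 replicate 1. This was far above its level in the other 4 libraries, at 2697 to 4373 TPM. All 11 hepatocyte genes examined, among them APOB and HNF4A, were detected in all 6 libraries, while 5 fibroblast markers summed to 1.40 to 1.81 TPM in siSLU7 and 0.649 to 0.750 TPM in siGL2, without overlap, and 4 endothelial markers to 0.697 to 1.44 TPM in siSLU7 and 0.249 to 0.749 TPM in siGL2. COL3A1 and KDR were at 0 in all libraries. Of the fibroblast markers COL1A2 alone passed the filter on low counts, at a log2 fold change of -0.14 (edgeR adjusted p = 0.888). On log2(TPM + 1) the median gene was itself higher in siSLU7, by 0.35. Of the immune markers, which summed to 43.9 to 52.3 TPM in siSLU7 and 42.2 to 50.8 TPM in siGL2, LYZ and CD68 carried most, and CD3E was at 0 in 5 of 6 libraries. PTPRC, the pan-leukocyte gene CD45, was higher in siSLU7, with 12, 11 and 8 counts in siSLU7, against 3, 3 and 4 in siGL2 (log2 fold change 2.01, edgeR adjusted p = 0.0223). The other immune markers tested were not called, with log2 fold changes of -0.33 for LYZ, -0.18 for CD68 and 0.05 for CSF1R. The part of these markers in the members' results was not tested.

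SLU7 itself (ENSG00000164609.10, chromosome 5, GRCh38) had 9.31, 8.23 and 10.4 CPM in siSLU7, against 20.7, 17.0 and 18.3 CPM in siGL2, where CPM is the TMM-scaled count relative to library size. The groups did not overlap. SLU7 fell by 1.002 on the log2 scale (SE 0.18, adjusted p = 0.0139, edgeR's quasi-likelihood test with Benjamini-Hochberg adjustment over all genes tested). On log2(TPM + 1) the difference was -0.06 where the median gene lay at 0.35, which left -0.41 relative to that median. The edgeR adjusted p was 0.0556 without siSLU7 replicate 1, 0.0805 without siSLU7 replicate 2 and 0.116 with offsets for average transcript length, at log2 fold changes of -1.01, -0.92 and -0.64.

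More of the mitosis genes rose than fell with SLU7 knocked down. The fold changes sum all transcripts of a gene, coding and non-coding. MAD2L1, the checkpoint protein that binds and blocks CDC20, rose 2.31-fold. CENPC, which links the centromeric nucleosome to the outer kinetochore, rose 2.11-fold in this sum, but not in its coding transcripts. SGO2, which protects centromeric cohesion, and TPX2, which drives spindle assembly, rose 1.85-fold and 1.84-fold. SPC24, a subunit of the microtubule-binding NDC80 complex, fell to 0.505 of its siGL2 level, and MAD1L1, the partner that carries MAD2 to the kinetochore, fell to 0.642.

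All 56 genes passed the filter on low counts. At an adjusted p under 0.05, 8 were higher in siSLU7 and 2 were lower, which compares with 5.93% of all 17109 genes tested called higher and 7.94% called lower. The log2 fold change was above 0 in 44 of the 56, with a median of 0.34, against a median of -0.01 over all genes tested. In 18 members every siSLU7 library was above every siGL2 library, where 17.8% of all genes were, and in 3 every siSLU7 library was below, where 18.8% were. Reads of the 56 genes made up 0.327% to 0.37% of the siSLU7 libraries and 0.216% to 0.308% of the siGL2 libraries, so the groups did not overlap. In bulk RNA, more dividing cells and more RNA of these genes per cell cannot be told apart. MKI67, the proliferation marker that coats mitotic chromosomes, had 619, 639 and 1028 CPM in siSLU7 and 886, 341 and 516 CPM in siGL2, so its groups overlapped, and its log2 fold change of 0.39 (SE 0.35) did not pass the test (adjusted p = 0.482).

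Without siSLU7 replicate 3 and siGL2 replicate 1, 20 members were higher and 2 lower, where 14.1% of all genes were called higher and 15.7% lower. All 10 calls of the full set were among them. These 2 libraries were chosen from these same data. In the members' mean log2(CPM + 1) they were the lowest siSLU7 library (4.879) and the highest siGL2 library (4.686). Leaving them out therefore widens the members' difference, and the calls kept are no separate support. Without siSLU7 replicate 1 or replicate 2 alone, edgeR called none of the 56 in either direction, although the 10 kept their signs. Few genes were called at all: 162 higher and 175 lower of 18584 without replicate 1, and 0 of 18511 without replicate 2. At an unadjusted p under 0.05, 15 members were then higher and 4 lower without replicate 1, where 4755 of all genes passed. Without replicate 2, 13 members were higher and 2 lower, where 4244 of all genes passed. The adjusted p of the 10 ran from 0.0509 (SPC24) to 0.159 (MAD1L1) without replicate 1, and from 0.0724 (SPC24) to 0.171 (MAD1L1) without replicate 2. Without siGL2 replicate 2, 0 members were called higher (13 at an unadjusted p under 0.05) and SPC24 was called lower. Of all 17467 genes tested, 175 were then higher and 281 lower. MAD2L1 was the 1 member called higher without siGL2 replicate 3, and SPC24 was the 1 called lower, where 224 and 400 of 17429 genes were. Without siSLU7 replicate 3, 3 members were higher and 1 was lower, where 433 and 610 of 18505 genes were. Without siGL2 replicate 1 the members called were 12 and 2, where 2005 and 2450 of 17583 genes were. DESeq2 on all 6 libraries called 10 members higher and 2 lower, where 1045 and 1473 of 17109 genes were.

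**Figure D1:**
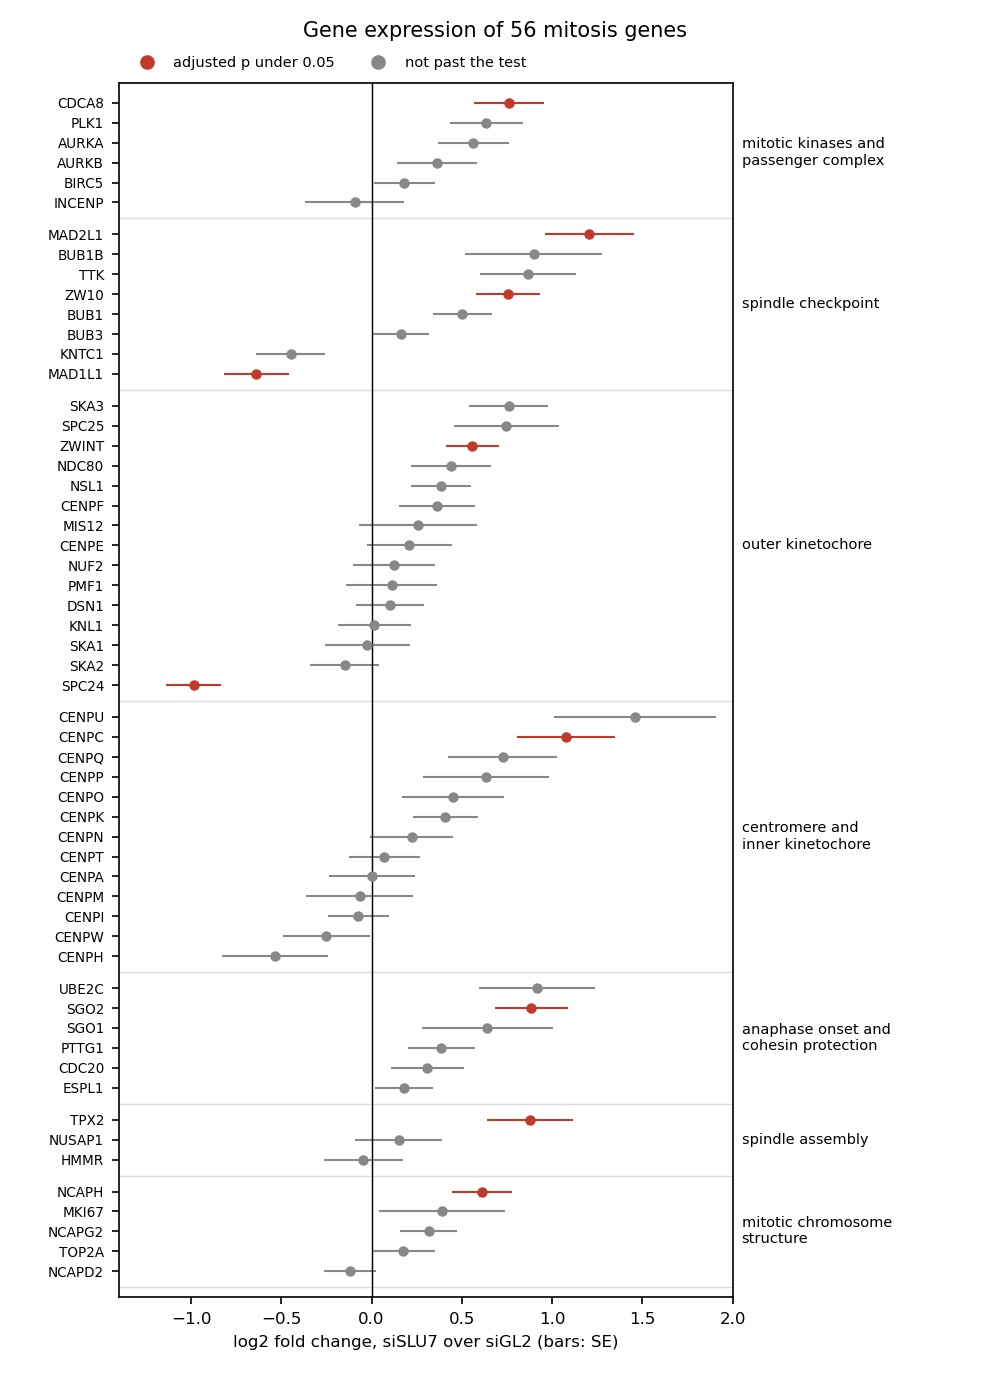
Log2 fold change of each of the 56 genes, siSLU7 over siGL2, with the standard error as a bar, grouped by role; red points passed the test at an adjusted p under 0.05. Of the 56 points, 44 lie above 0, and the 2 red points below 0 are SPC24 and MAD1L1.

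Among the mitotic kinases and the chromosomal passenger complex, which corrects faulty attachments, 1 of 6 genes was called higher, with a median log2 fold change of 0.46. CDCA8, the borealin subunit of the passenger complex, had 14.2, 15.7 and 14.7 CPM in siSLU7, against 7.23, 9.04 and 10.0 CPM in siGL2. Every siSLU7 library was above every siGL2 library, at a log2 fold change of 0.76 (SE 0.19, edgeR adjusted p = 0.0341). PLK1, the Polo-like kinase that acts from mitotic entry to cytokinesis, had 36.8, 33.7 and 31.2 CPM in siSLU7 and 15.96, 23.5 and 26.0 CPM in siGL2. Its groups were separate too, yet at a log2 fold change of 0.63 (SE 0.20) it missed the threshold (adjusted p = 0.0678). AURKA, the spindle-pole kinase that TPX2 activates, had 133.6, 133.9 and 87.0 CPM in siSLU7, against 78.3, 72.2 and 89.3 CPM in siGL2. Here siSLU7 replicate 3 lay inside the siGL2 range, and the difference of 0.56 (SE 0.20) did not pass (adjusted p = 0.0896). AURKB, the kinase of the passenger complex, its scaffold INCENP and the survivin gene BIRC5 had log2 fold changes of 0.36, -0.09 and 0.18.

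The spindle checkpoint genes showed both directions, with 2 of 8 called higher, 1 called lower and a median log2 fold change of 0.63. MAD2L1 (chr4:120055608-120067074, minus strand) had 16.6, 22.1 and 17.4 CPM in siSLU7, against 6.24, 7.18 and 10.9 CPM in siGL2. The lowest siSLU7 library thus stood above the highest siGL2 library. MAD2L1 rose by 1.21 on the log2 scale (SE 0.25, edgeR adjusted p = 0.0186), the steepest rise among the members called. ZW10, a subunit of the RZZ complex that brings dynein and the MAD1 and MAD2 proteins to kinetochores, had 41.8, 52.0 and 45.8 CPM in siSLU7 and 32.9, 23.7 and 26.0 CPM in siGL2. Its groups did not overlap, and it rose by 0.76 (SE 0.18, adjusted p = 0.0265). MAD1L1 went the other way, with 47.2, 54.3 and 64.2 CPM in siSLU7, against 95.8, 91.6 and 70.4 CPM in siGL2. No siSLU7 library reached the lowest siGL2 library, and the gene fell by 0.64 (SE 0.18, adjusted p = 0.0474). MAD1L1 was called in 6 of 17 alternatives, the fewest of the 10. On log2(TPM + 1) MAD1L1 lay at 0.09, which is -0.26 relative to the median gene, and with offsets for GC content and length its adjusted p was 0.226 at -0.32.

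The other checkpoint genes did not pass the test. TTK, the kinase that starts checkpoint signalling, had a log2 fold change of 0.87 (adjusted p = 0.0622), the pseudokinase gene BUB1B had 0.90 (adjusted p = 0.141) and the kinase gene BUB1 had 0.50 (adjusted p = 0.0737). BUB3, the adaptor of both BUB proteins, had 0.16. KNTC1, the ROD subunit of the same RZZ complex as ZW10, had 55.9, 51.2 and 36.9 CPM in siSLU7, against 58.7, 61.2 and 76.7 CPM in siGL2. Its siSLU7 libraries were all below its siGL2 libraries, with a log2 fold change of -0.45 (adjusted p = 0.148), although on log2(TPM + 1) it lay at 0.24, above 0 and -0.11 relative to the median gene.

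**Figure D2:**
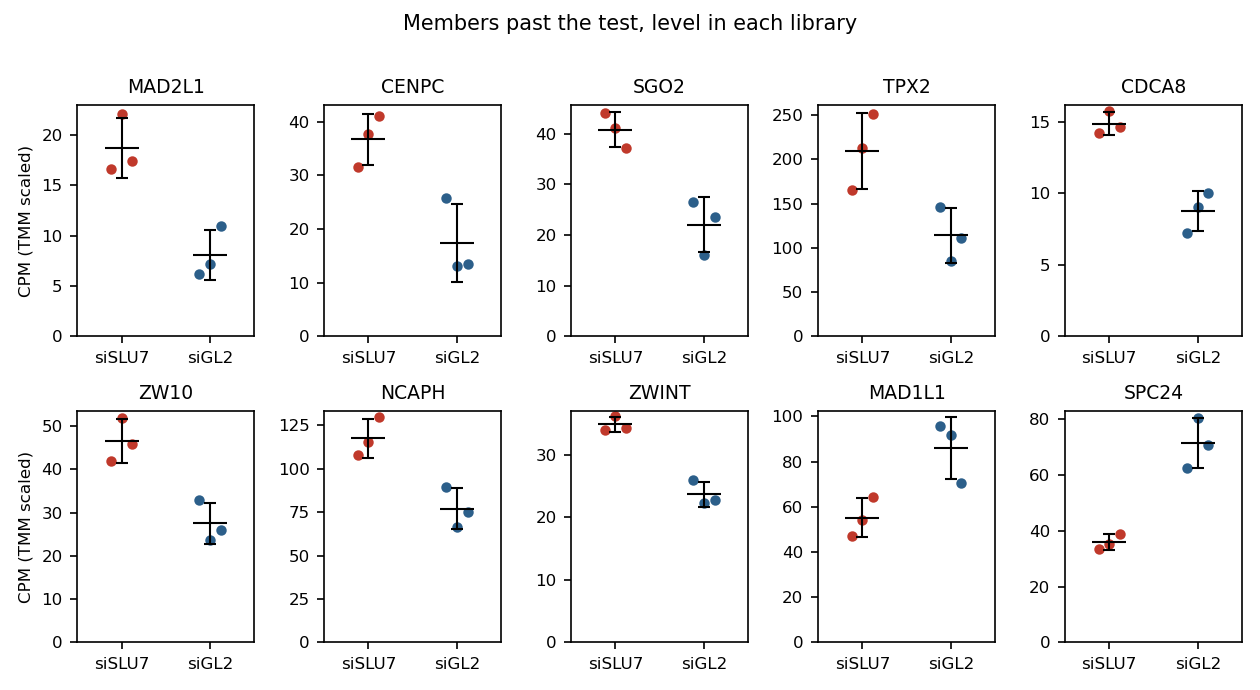
Level of the 10 genes past the test in each library, in CPM after TMM scaling, siSLU7 left and siGL2 right; black lines are the mean and the bars 1 SD (n = 3 each). In each panel the groups are separate: 8 genes lie higher in siSLU7, and MAD1L1 and SPC24 lie lower.

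In the outer kinetochore 1 of 15 genes was called higher and 1 lower, with a median of 0.21. Both counts are near the 5.93% and 7.94% over all genes. SPC24 (chr19:11131520-11155808, minus strand), which with SPC25 anchors the NDC80 complex to the inner layers, had 33.6, 35.3 and 38.9 CPM in siSLU7, against 62.5, 80.3 and 70.8 CPM in siGL2. The siSLU7 libraries were close together and far below all siGL2 libraries. It fell by 0.99 (SE 0.15, edgeR adjusted p = 0.00989), the smallest adjusted p of any member, and by 0.50 on log2(TPM + 1) (limma adjusted p = 0.16). Its 3 partners in the complex were not called. SPC25 had 12.1, 11.2 and 6.31 CPM in siSLU7, against 5.61, 4.79 and 7.23 CPM in siGL2, with siSLU7 replicate 3 inside the siGL2 range and a log2 fold change of 0.75 (adjusted p = 0.116). NDC80, the subunit that touches the microtubule, had 0.44 and its dimer partner NUF2 had 0.12. The difference between SPC24 and its partners was not tested.

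Of the coding transcripts of SPC24, SPC24-207 had 93.8, 108.8 and 126.2 estimated counts in siSLU7, against 322.6, 387 and 358.3 in siGL2, and SPC24-206 had 103.2, 58.0 and 60.2 in siSLU7, against 160, 166 and 175.6 in siGL2. Both were lower in every siSLU7 library, at unadjusted edgeR p of 0.00162 and 0.0121 that did not pass adjustment over all transcripts.

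ZWINT, which sits on KNL1 and helps to recruit the RZZ complex, had 34.0, 36.2 and 34.3 CPM in siSLU7, against 25.9, 22.3 and 22.7 CPM in siGL2. Its libraries were tight within each group and did not overlap, and it rose by 0.56 (SE 0.15, edgeR adjusted p = 0.0376). SKA3, of the complex that steadies kinetochores on shrinking microtubules, had 13.1, 9.88 and 14.3 CPM in siSLU7 and 6.86, 6.65 and 8.50 CPM in siGL2, and its groups were separate. At 0.76 (SE 0.22) it was just outside the threshold (adjusted p = 0.0505). The other SKA subunits, SKA1 and SKA2, had -0.02 and -0.15. Among the MIS12 complex, the bridge between the 2 layers, the log2 fold changes were 0.26 for MIS12, 0.10 for DSN1, 0.38 for NSL1 and 0.11 for PMF1. KNL1, the checkpoint scaffold, had 0.02, the motor gene CENPE 0.21 and CENPF, a large protein of the outer corona, 0.36, and none of these 7 passed.

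In the inner kinetochore 1 of 13 genes was called higher, near the 5.93% over all genes, with a median of 0.22. CENPC (chr4:67468748-67545606, minus strand) had 31.6, 37.7 and 41.0 CPM in siSLU7, against 25.7, 13.03 and 13.4 CPM in siGL2. In siGL2 replicate 1 it stood above the other siGL2 libraries but below every siSLU7 library. CENPC rose by 1.08 (SE 0.27, edgeR adjusted p = 0.0333), and with offsets for GC content and length its adjusted p was 0.0687 at 0.88. Its coding transcripts alone had 18.3, 1.99 and 10.8 estimated counts in siSLU7, against 23.6, 14.7 and 35.1 in siGL2. They did not show the rise of the summed gene. CENPU, of the CENP-O/P/Q/U module that docks PLK1, had 3.05, 6.04 and 6.86 CPM in siSLU7, against 2.99, 1.06 and 1.65 CPM in siGL2. It had the largest fold change of all 56, at 1.46 (SE 0.45), but with few counts and a wide spread it did not pass (adjusted p = 0.062). CENPQ of the same module had 5.95, 11.9 and 7.23 CPM in siSLU7 and 5.99, 4.39 and 4.69 CPM in siGL2, so siSLU7 replicate 1 and siGL2 replicate 1 overlapped, at 0.73 (SE 0.30, adjusted p = 0.136). CENPP and CENPO, the other genes of the module among the 56, had 0.63 and 0.45.

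The remaining inner genes were not called. CENPA, the histone H3 variant that marks the centromere, had 4.12, 4.76 and 5.01 CPM in siSLU7 and 4.86, 4.65 and 4.31 CPM in siGL2, a log2 fold change of 0.00 (SE 0.24). CENPN, which reads the CENPA nucleosome, had 0.22. Of the CENP-H/I/K/M group, CENPK had 0.41, with separate groups, and CENPH, CENPI and CENPM had -0.53, -0.07 and -0.07. The DNA-binding pair CENPT and CENPW had 0.07 and -0.25.

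Of the 6 genes of anaphase onset and cohesin protection, all had fold changes above 0, 1 was called higher and the median was 0.51. SGO2, the shugoshin that keeps sister centromeres joined, had 44.0, 41.2 and 37.1 CPM in siSLU7, against 26.6, 16.1 and 23.5 CPM in siGL2. The groups were well apart, and SGO2 rose by 0.89 (SE 0.20, edgeR adjusted p = 0.0252). UBE2C, the ubiquitin-conjugating enzyme of the anaphase-promoting complex, had 19.5, 15.6 and 15.2 CPM in siSLU7, against 4.49, 11.3 and 10.9 CPM in siGL2, where replicate 1 was the low sample. It did not pass at 0.92 (SE 0.32, adjusted p = 0.089).

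PTTG1, the securin that inhibits separase, is the head-to-head neighbour of SLU7. Its annotation starts at chromosome 5 position 160421822 on the plus strand, and SLU7 begins at 160421711 on the minus strand. PTTG1 had 14.2, 18.3 and 15.6 CPM in siSLU7, against 10.9, 13.6 and 12.3 CPM in siGL2. These groups were separate by a narrow margin, and the log2 fold change of 0.39 (SE 0.18) did not pass (adjusted p = 0.184). ESPL1, the separase itself, had 0.18, CDC20 had 0.31 and SGO1, the other shugoshin, had 0.64 with siSLU7 replicate 1 alone above the rest.

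In spindle assembly 1 of 3 genes was called higher, with a median of 0.15. TPX2 had 165.9, 212.4 and 251.6 CPM in siSLU7, against 146.4, 84.8 and 111.2 CPM in siGL2. The lowest siSLU7 library stood just above siGL2 replicate 1 and far above the others, and TPX2 rose by 0.88 (SE 0.24, edgeR adjusted p = 0.0415). The microtubule bundler NUSAP1 had 43.8, 45 and 41.9 CPM in siSLU7 and 50.9, 24.7 and 42.1 CPM in siGL2, and the spindle protein HMMR had 38.0, 38.2 and 30.2 CPM in siSLU7 and 48.9, 31.2 and 29.8 CPM in siGL2. Both overlapped between groups and had log2 fold changes of 0.15 and -0.05, whose sign depended on single libraries. Without siGL2 replicate 2 NUSAP1 lay at -0.10, and without siGL2 replicate 1 HMMR lay at 0.20.

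Among genes of mitotic chromosome structure 1 of 5 was called higher, with a median of 0.32. NCAPH, the kleisin of condensin I, had 107.8, 115.3 and 129.8 CPM in siSLU7, against 89.7, 66.2 and 75.2 CPM in siGL2. The groups did not overlap, and NCAPH rose by 0.61 (SE 0.17, edgeR adjusted p = 0.0424). NCAPG2 of condensin II had 37.7, 39.9 and 36.2 CPM in siSLU7 and 35.0, 26.6 and 29.7 CPM in siGL2, separate but close, at 0.32 (adjusted p = 0.202). NCAPD2, another condensin I subunit, had -0.12, and TOP2A, the topoisomerase that untangles sister chromatids, had 0.18.

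Levels of the genes relative to each other are given per length, in TPM. BUB1B had the highest mean of the 56, with 134.5 TPM in siSLU7 and 53.1 TPM in siGL2. It led in every siSLU7 library, but in siGL2 it had 103.4, 23.1 and 32.7 TPM and led in replicate 1 alone. In siGL2 replicates 2 and 3, MAD1L1 (33.9 and 40.8 TPM) and SPC24 (35.1 and 39.7 TPM) stood above it. The tested transcripts of BUB1B run from 477 to 3669 bases. A count assigned to a short transcript adds more TPM, so the rank depends on how counts were assigned. The least abundant in siSLU7 was SGO1, with 2.29 TPM in siSLU7 and 1.04 TPM in siGL2, and the least abundant in siGL2 was CENPU, with 3.23 TPM in siSLU7 and 0.611 TPM in siGL2. On log2(TPM + 1) the members' median difference was 0.85 where that of all genes was 0.35, and 54 of 56 lay above 0. The same scaling moved the split of calls over all genes: limma called 2985 genes higher and 150 lower (95.2% higher), and of the members 24 higher and 0 lower (38 and 0 at an unadjusted p under 0.05), where the counts gave 42.8% higher among the genes called.

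The mitosis genes outside the list of 56 were taken as 6 lists with 67 genes, all of which passed the filter. Of these, 13 were called higher and 1 lower, where 5.93% of all genes were called higher and 7.94% lower, and the median log2 fold change was 0.20. The same shares stand beside the counts of each list. The inhibitor of the anaphase-promoting complex FBXO5 (EMI1) had 30.5, 26.5 and 32.6 CPM in siSLU7, against 10.2, 9.57 and 12.3 CPM in siGL2, and rose by 1.48 (SE 0.18, edgeR adjusted p = 0.00787). Of 18 genes of that complex and its regulators 3 were called higher, namely FBXO5 and the subunit genes ANAPC10 (1.38) and CDC16 (1.02), and 1 lower, the G1 co-activator FZR1 (-0.80). CDC16 had 44.3, 39.2 and 34.9 CPM in siSLU7, against 24.2, 16.1 and 17.9 CPM in siGL2, without overlap (adjusted p = 0.0155). WEE1, the kinase that holds CDK1 inactive, had 59.2, 62.2 and 53.0 CPM in siSLU7, against 26.6, 28.98 and 30.2 CPM in siGL2. It rose by 1.03 (SE 0.14, adjusted p = 0.00923). CDC25A, the phosphatase that opposes it, had 29.2, 30 and 22.4 CPM in siSLU7, against 10.9, 11.03 and 14.2 CPM in siGL2, and rose by 1.18 (SE 0.19, adjusted p = 0.0106). With GTSE1 (0.65) they made 3 of 11 genes of mitotic entry called higher. In FBXO5, WEE1 and CDC25A the groups were far apart.

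Of 17 further centromere genes 2 were called higher, HJURP, the chaperone that loads CENPA (1.23), and ITGB3BP (1.11). Of 5 further condensin genes SMC4 was called higher (0.54), and of 6 genes of cytokinesis ECT2 (0.76) and RACGAP1 (0.69), which act together on RhoA. Of 10 genes that control mitotic transcription LIN9 of the MuvB core (1.15) and the p107 gene RBL1 (0.88) were called higher. FOXM1 had a log2 fold change of 0.66 (adjusted p = 0.0677) and MYBL2 of -0.07, and neither passed.

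The members' promoters were searched for sequence elements of cell cycle genes. The cell cycle homology region, with the core TTTGAA, is bound by the MuvB complexes, and the CCAAT box by NF-Y. RefSeq promoters (GRCh38.p14, 250 bases before to 50 after the start) were found for 46 of the 56 members and searched for these letters on both strands. TTTGAA was present in 25 of 46 members (54.3%), against 15.4% of all 27305 promoters of that length, CCAAT in 69.6% of members, against 35.7% of all, and both in 39.1% of members, against 6.08% of all. Of the 7 promoters found for members called higher, 5 held TTTGAA and 7 held CCAAT, and of the 2 for members called lower, 0 held TTTGAA and 1 held CCAAT. A match describes the letters in the window and is not a binding site by itself. The promoters of MAD2L1 and CDCA8, both called higher, and of SPC24, called lower, are printed 5′ to 3′ on the strand of the gene to show the elements. Capitals mark TTTGAA and CCAAT or their reverse complements TTCAAA and ATTGG, and in CDCA8 a TTTGAA and an ATTGG overlap into a longer run. MAD2L1 covers chr4:120066799-120067098 (minus strand), CDCA8 chr1:37692266-37692565 (plus strand) and SPC24 chr19:11155733-11156032 (minus strand).
MAD2L1: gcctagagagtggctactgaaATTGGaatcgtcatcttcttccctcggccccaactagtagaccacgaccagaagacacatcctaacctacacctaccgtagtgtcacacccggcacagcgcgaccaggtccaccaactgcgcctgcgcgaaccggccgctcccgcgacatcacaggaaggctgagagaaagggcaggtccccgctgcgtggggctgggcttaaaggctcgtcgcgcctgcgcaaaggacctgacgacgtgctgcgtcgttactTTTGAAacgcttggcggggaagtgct
CDCA8: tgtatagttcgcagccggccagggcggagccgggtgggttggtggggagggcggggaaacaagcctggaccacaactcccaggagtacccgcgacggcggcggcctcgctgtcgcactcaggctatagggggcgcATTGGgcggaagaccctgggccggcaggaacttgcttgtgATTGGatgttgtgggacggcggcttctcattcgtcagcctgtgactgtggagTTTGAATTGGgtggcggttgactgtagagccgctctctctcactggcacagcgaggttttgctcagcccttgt
SPC24: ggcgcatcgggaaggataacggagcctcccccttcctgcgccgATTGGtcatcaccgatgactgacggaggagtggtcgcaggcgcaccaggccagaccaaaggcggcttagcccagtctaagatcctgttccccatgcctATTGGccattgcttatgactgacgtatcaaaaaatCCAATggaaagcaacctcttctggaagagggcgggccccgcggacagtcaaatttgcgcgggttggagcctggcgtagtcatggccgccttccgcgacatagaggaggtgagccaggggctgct

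Below the gene level no single transcript passed the test, but more of the members' retained-intron transcripts lay above their siGL2 level than below it. GENCODE gives this type to non-coding transcripts that keep intron sequence of a coding transcript. The files list 482 transcripts of the 56 genes, of which 190 passed the filter. In edgeR none was called, either among these 190 or among all 43128 tested (0%, and 16.1% at an unadjusted p under 0.05). At an unadjusted p under 0.05, 29 of the members' transcripts were higher and 7 lower. By type, 12 of 32 retained-intron transcripts were higher and 0 lower, where 14.7% of all retained-intron transcripts tested were higher and 3.89% lower. Their median log2 fold change was 0.89, against 0.35 over all 7692 of that type. The members were also higher as genes, with a median of 0.34, against -0.01 over all genes. The part of that rise in the gap between the transcript medians was not tested. Of 118 protein-coding transcripts 9 were higher and 5 lower, where 5.05% of all coding transcripts were higher and 12% lower, and the median was 0.07, against -0.20 over all. Of 17 decay transcripts (nonsense-mediated decay) 2 were higher and 0 lower, near the 7.97% higher and 6.01% lower over all of that type. Of 23 processed transcripts 6 were higher and 2 lower, where 8.93% of all were higher and 5.83% lower.

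**Figure D3:**
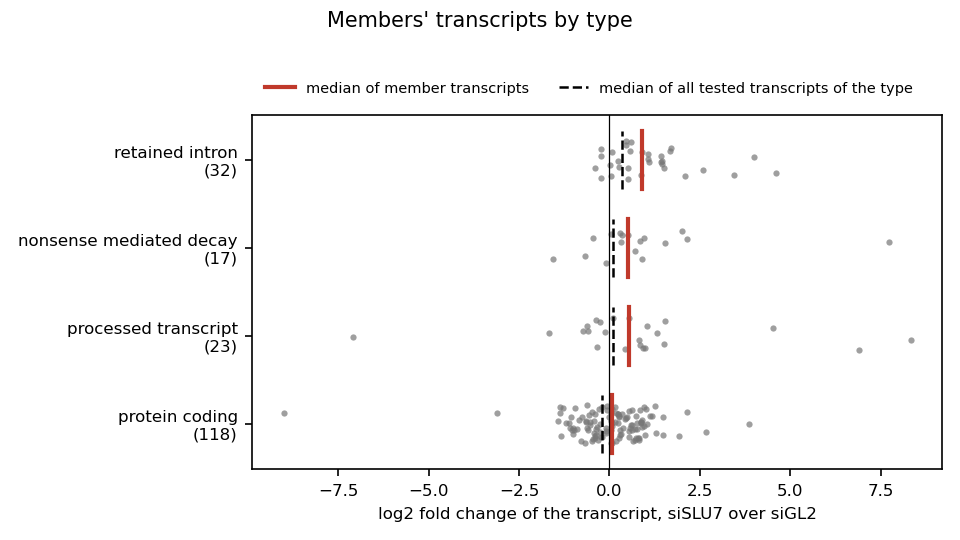
Log2 fold change of each tested transcript of the 56 genes, siSLU7 over siGL2, by annotated type with the number tested in brackets; red lines are the medians of the members' transcripts and dashed lines those of all tested transcripts of the type. The retained-intron transcripts have a median of 0.89, against 0.35 for all of that type; points beyond about 5 on either side have a group at 0 counts, and their fitted values depend on the prior count.

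The sequences at the ends of the introns that these transcripts keep are shown because SLU7 acts at the second step, on the 3′ splice site. Of the 84 annotated retained-intron transcripts of the members, 21 hold a whole intron of a coding transcript and 79 at least 30 bases of one in GENCODE 29, which covers 479 of the 482 transcripts. Printed first are the 3′ ends, 40 intron bases with the closing AG in capitals and then 6 exon bases, of introns kept whole or at their end by transcripts that were higher at an unadjusted p under 0.05. CENPT-233, ESPL1-203 and PLK1-202 keep whole introns, and MAD2L1-205 and BUB1B-206 keep the last 59 and 206 bases. They lie at chr4:120060972-120061017 (MAD2L1-205, minus strand), chr15:40200204-40200249 (BUB1B-206, plus), chr16:67830083-67830128, chr16:67830543-67830588 and chr16:67832310-67832355 (CENPT-233, minus), chr12:53289050-53289095 (ESPL1-203, plus) and chr16:23680044-23680089 (PLK1-202, plus).
MAD2L1-205: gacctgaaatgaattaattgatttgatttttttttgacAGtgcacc
BUB1B-206: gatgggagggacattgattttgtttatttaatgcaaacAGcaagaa
CENPT-233 (intron from 67830089): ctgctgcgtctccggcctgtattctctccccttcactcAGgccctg
CENPT-233 (intron from 67830549): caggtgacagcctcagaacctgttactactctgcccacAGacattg
CENPT-233 (intron from 67832316): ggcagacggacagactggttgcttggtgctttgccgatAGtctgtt
ESPL1-203: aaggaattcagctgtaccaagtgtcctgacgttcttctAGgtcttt
PLK1-202: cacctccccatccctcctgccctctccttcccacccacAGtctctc

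Other transcripts of the set read into an intron from its start and end inside it. Their 5′ splice sites are printed as 6 exon bases and 12 intron bases with the opening GT in capitals. They lie at chr2:96359188-96359205 (NCAPH-207, plus strand), chr2:110666251-110666268 (BUB1-208, minus), chr4:67493872-67493889 (CENPC-205, minus) and chr15:40625635-40625652 (KNL1-211, plus). Each starts with GT at the intron, as nearly all human introns do.
NCAPH-207: gcaaacGTatgtaattct
BUB1-208: tccgagGTatgttgtgct
CENPC-205: catcagGTaaaacttatt
KNL1-211: cgggagGTgagctctgtc

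MAD2L1-205 had 9.24, 34.4 and 31.7 estimated counts in siSLU7, against 7.21, 3.40 and 5.79 in siGL2, and every siSLU7 library was higher. CENPT-233, which keeps whole introns of 301, 667 and 139 bases, had 21.5, 45.2 and 35.6 in siSLU7, against 6.25, 7.53 and 16.3 in siGL2, again without overlap. NCAPH-207 had 92.6, 101 and 226.9 in siSLU7, against 40.8, 63.1 and 59.2 in siGL2, with siSLU7 replicate 3 far above the others. These are raw estimates, and the siGL2 libraries were the deeper ones. BUB1-208 was near 0 in siGL2, with 13.4, 15.96 and 13.99 estimated counts in siSLU7, against 0, 0 and 3.14 in siGL2. CENPC-205 had 115.2, 130.7 and 134.5 in siSLU7, against 108.6, 42.7 and 25.1 in siGL2, where replicate 1 came close to the siSLU7 values. BUB1B-206 had 20.7, 39.8 and 18.2 in siSLU7, against 6.63, 0 and 1.83 in siGL2, and ESPL1-203 had 56.1, 33.6 and 25.1 in siSLU7, against 12.4, 23.2 and 14.8 in siGL2. Both were higher in every siSLU7 library. Taken as a percentage of the gene's counts, however, retained-intron transcripts overlapped between the groups in BUB1B, ESPL1 and PLK1. Their means were 17.81%, 31.03% and 31.93% in siSLU7, against 16.98%, 23.44% and 31.87% in siGL2.

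As a share of the gene's own counts, so that library size does not scale it, the retained-intron class was described in the 32 members that had any such counts and at least 20 counts in each library. In 16 of the 32 every siSLU7 library had a higher share than every siGL2 library, where 24.2% of 6039 coding genes did, and in 1, CENPK, every siSLU7 library was lower, where 2.5% did. The mean share was higher in 30 of 32, with a median difference of 3.76 percentage points, against 2.40 over the 6039 genes. Without siSLU7 replicate 3 and siGL2 replicate 1, 21 of the 32 were higher without overlap, where 43.2% of all were. Summed over the 56 genes, retained-intron transcripts took 8.63%, 8.65% and 10.5% of the counts in siSLU7, against 4.75%, 7.17% and 5.71% in siGL2, each within 0.427 points by a Wilson 95% interval that covers counting error only. The mean difference of 3.39 points was close to the 3.38 points over all coding genes, where the share was 13.4% in siSLU7 and 10.0% in siGL2. All non-coding types together took 18.7% ± 2.19 of the members' counts in siSLU7 and 14.7% ± 0.757 in siGL2 (SD, n = 3 each).

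**Figure D4:**
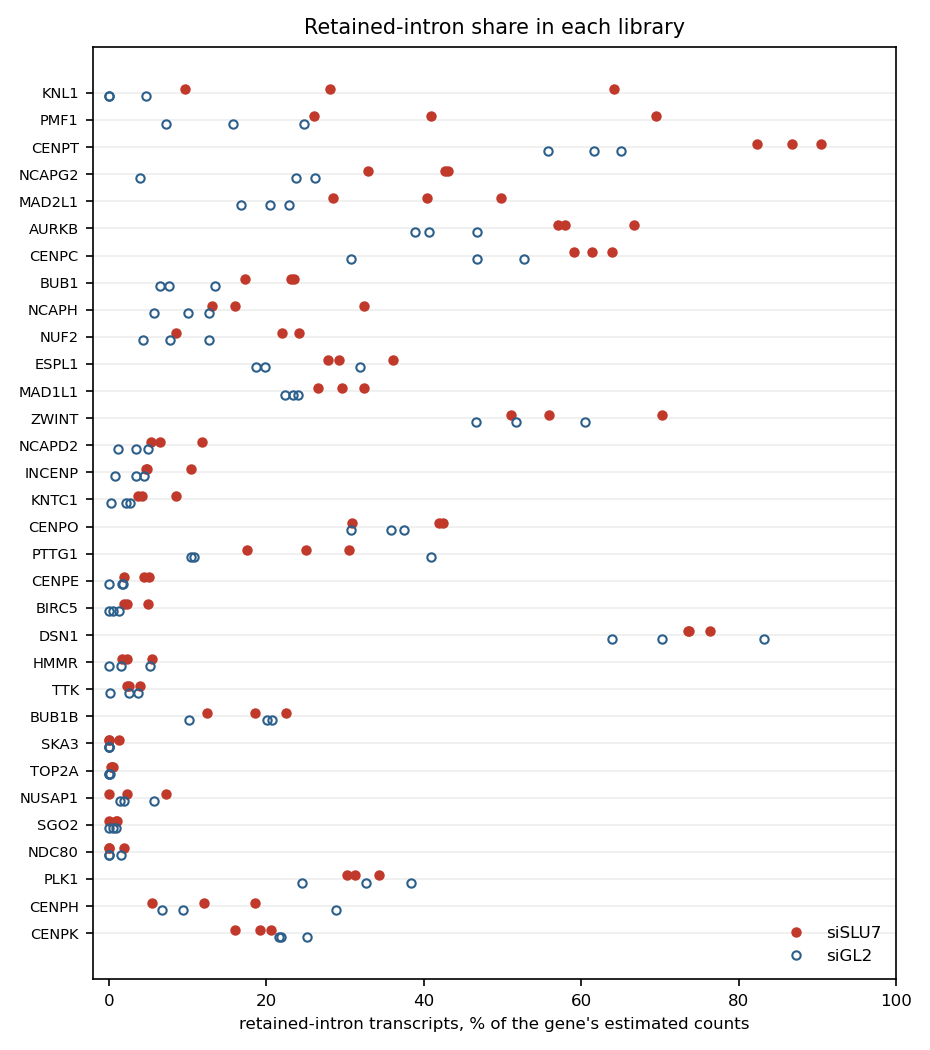
Share of each gene's estimated counts in retained-intron transcripts, in percent, for the 32 members with enough counts, ordered by the difference of the means; filled red points are the siSLU7 libraries and open blue points the siGL2 libraries. In 16 genes, KNL1 and CENPT among them, all red points lie right of all blue points, and in CENPK they lie left.

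KNL1 had the largest difference in mean share. It had 28.1%, 9.68% and 64.2% of its counts in retained-intron transcripts in siSLU7, against 0%, 4.66% and 0% in siGL2, and the groups were separate although siSLU7 ranged widely. PMF1 had 26.1%, 41.0% and 69.6% in siSLU7, against 15.8%, 7.23% and 24.8% in siGL2, on 37.6 to 51.6 counts of the gene per siSLU7 library and 43.9 to 71.7 per siGL2 library. In CENPT the retained-intron class was the main one, with 90.5%, 86.9% and 82.3% in siSLU7, against 55.8%, 61.6% and 65.0% in siGL2. This was a wide and even gap on 100.2 to 117 counts of the gene per siSLU7 library and 120.9 to 153.4 per siGL2 library. The unscaled counts of the class in CENPT were 90.7, 101.6 and 92.2 in siSLU7, against 85.6, 93.8 and 78.6 in siGL2. In the test of class use described below CENPT was not called (diffSpliceDGE adjusted p = 0.244). NCAPG2 of condensin II came next, with 32.95%, 42.8% and 43.0% in siSLU7, against 3.96%, 23.8% and 26.1% in siGL2, and its groups were separate. MAD2L1 had 28.5%, 49.9% and 40.5% in siSLU7, against 20.4%, 16.8% and 22.9% in siGL2, and AURKB had 66.8%, 57.0% and 57.9% in siSLU7, against 38.9%, 46.8% and 40.6% in siGL2. In both genes all siSLU7 libraries were higher, but neither was called in the test of class use (diffSpliceDGE adjusted p = 0.81 and 0.856). CENPC followed with means of 61.5% in siSLU7 and 43.4% in siGL2, BUB1 with 21.3% in siSLU7 and 9.21% in siGL2, and NCAPH with 20.5% in siSLU7 and 9.44% in siGL2, each without overlap. The coding share of CENPC had means of 4.89% in siSLU7 and 19.9% in siGL2, also without overlap. CENPC was not called in the test of class use (diffSpliceDGE adjusted p = 0.409). Of the members called as genes, MAD2L1, CENPC and NCAPH, called higher, and MAD1L1, called lower (29.5% in siSLU7 and 23.3% in siGL2), had a higher share without overlap. ZWINT (59.1% in siSLU7 and 52.9% in siGL2) and SGO2 (0.661% in siSLU7 and 0.473% in siGL2), both called higher, overlapped. CENPK had 20.6%, 15.98% and 19.2% in siSLU7, against 21.5%, 21.9% and 25.1% in siGL2, so its siSLU7 libraries were lower by a small margin.

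A test of class use within genes asked whether the counts shifted between coding, retained-intron, decay and other transcripts. It covered 36 members, of which 4 were called, where 1.67% of 6838 genes were (edgeR diffSpliceDGE, Simes p per gene adjusted over all genes). NCAPG2 was first, with an adjusted p of 0.00413. Its decay class took 13.1%, 13.2% and 5.79% of its counts in siSLU7 and 0% in each siGL2 library, and its coding class took 36.2% ± 3.81 in siSLU7 and 66.3% ± 15.7 in siGL2 (SD, n = 3 each), while the gene's total was not called. ZWINT (adjusted p = 0.00541) lost its other non-coding class, which took 0% in each siSLU7 library, against 11.97%, 15.3% and 8.07% in siGL2. UBE2C (adjusted p = 0.0278) gained that class, with 15.01%, 9.29% and 15.7% in siSLU7 and 0% in each siGL2 library. In KNL1 (adjusted p = 0.0398) it was the retained-intron class that was higher. Each of the classes behind these 4 calls passed the count filter only through the group where it was high. The calls therefore describe these libraries and are no separate support. With limma's diffSplice 2 of the 36 members were called, NCAPG2 and BUB1, where 5.85% of genes were, a share near that of the members. Without siSLU7 replicate 1 or replicate 2 diffSpliceDGE called 0 members (8 and 5 at an unadjusted p under 0.05), where 53 of 7486 and 24 of 7460 genes were called.

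**Figure D5:**
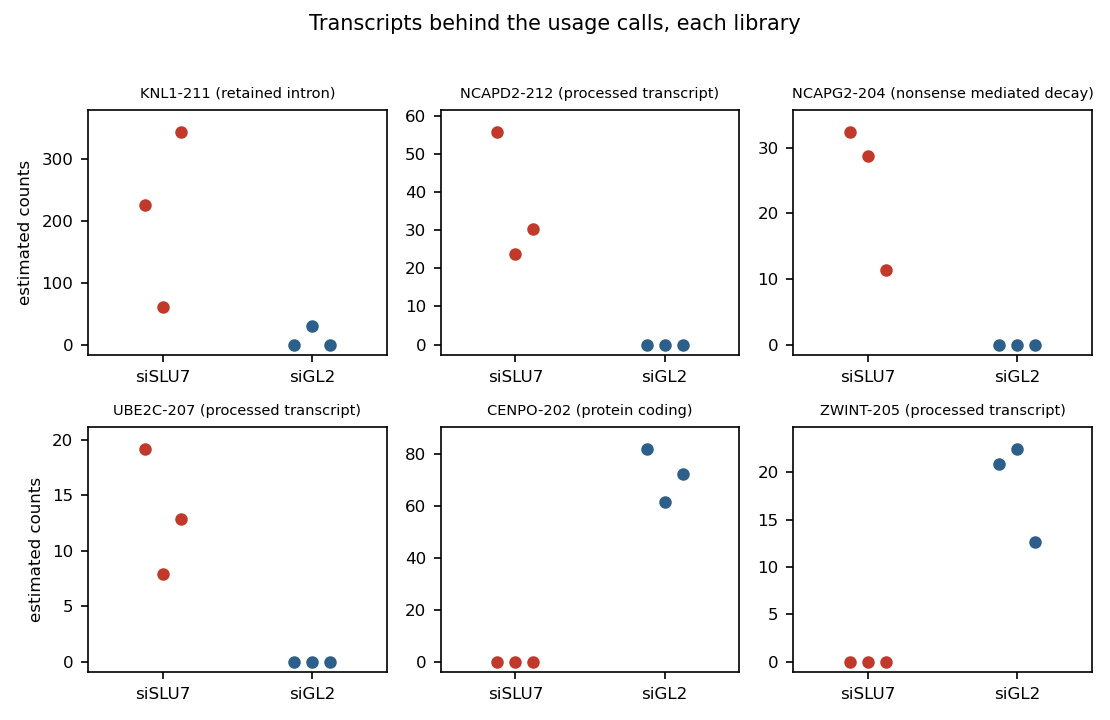
Estimated counts per library of the transcripts behind the usage calls, siSLU7 left and siGL2 right, with the annotated type in each title. NCAPD2-212, NCAPG2-204 and UBE2C-207 are at 0 in all 3 siGL2 libraries, and CENPO-202 and ZWINT-205 are at 0 in all 3 siSLU7 libraries.

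Transcript by transcript, 48 members could be tested and 4 were called, where 2.58% of 8869 genes were: CENPO, NCAPD2, UBE2C and ZWINT. In each of the 4, the transcript with the smallest p was at 0 in a whole group. It passed the count filter only through the other group, so these calls too are no separate support. CENPO was the clearest, with an adjusted p of 0.000102. CENPO-202, a coding transcript, had 0 estimated counts in each siSLU7 library, against 81.9, 61.2 and 72.3 in siGL2, at least 57.8-fold lower against a floor of 3 counts over the group. Its near twin CENPO-201 had 62.0, 78.6 and 31.0 in siSLU7 and 90.2, 28.2 and 91.5 in siGL2, with overlap. In GENCODE 29 both encode 300 residues and differ mainly in their first exon, and CENPO-202 is 4386 bases long there but 4106 in the files. Reads of such twins are split by the quantifier, and its uncertainty was not modelled. In GENCODE 29, CENPO-202, CENPO-201 and the coding CENPO-206 each share 1488 bases with exons of ADCY3 on the opposite strand. PTRHD1, also on the opposite strand, shares 238 bases with CENPO-202 and CENPO-206 and 0 with CENPO-201. ADCY3 had a log2 fold change of -0.64 (edgeR adjusted p = 0.0313) and PTRHD1 of -0.29 (edgeR adjusted p = 0.589). The part of these overlaps in the counts of CENPO-202 was not tested. CENPO was called without each library in turn, but limma's diffSplice called 0 of the 48 (3 at an unadjusted p under 0.05), where 2.1% of genes were called.

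NCAPD2 (adjusted p = 0.00645) gained NCAPD2-212, a processed transcript, with 55.8, 23.7 and 30.2 estimated counts in siSLU7 and 0 in each siGL2 library, at least 45.4-fold higher. Its full-length coding transcript NCAPD2-201 had 201.5, 232.9 and 222.3 in siSLU7, against 539.4, 422.2 and 458.3 in siGL2, a log2 fold change of -0.78 after scaling, while the gene as a whole had -0.12. The short UBE2C-207 (adjusted p of the gene 0.0446) had 19.2, 7.90 and 12.9 in siSLU7 and 0 in each siGL2 library, at least 16.6-fold higher. The coding UBE2C-205 had 86.9, 65.2 and 63.5 in siSLU7, against 36, 36.9 and 61.2 in siGL2, so most of the gene's counts stayed in the coding form. ZWINT-205 (adjusted p of the gene 0.0453) had 0 in each siSLU7 library, against 20.9, 22.5 and 12.6 in siGL2, at least 15.02-fold lower. NCAPG2-204, a decay transcript, had 32.4, 28.7 and 11.3 in siSLU7 and 0 in each siGL2 library, at least 29.99-fold higher, and KNL1-211 had 224.6, 61.4 and 343.7 in siSLU7, against 0, 30.6 and 0 in siGL2, although neither gene passed the test on single transcripts (adjusted p = 0.0776 and 0.309).

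An exon of 18 members overlaps another gene in GENCODE 29, on the opposite strand in 14 and on the same strand in 4, and reads there cannot be told apart without the strand setting. The 4 are BUB1B with the readthrough BUB1B-PAK6, CENPA with SLC35F6, NUSAP1 with AC087721.2 and PMF1 with the readthrough PMF1-BGLAP. Genes called are among them, MAD2L1 and SGO2 for example. The tested transcripts of SGO2 share 0 bases with the exons of KCTD18, and MAD2L1-201 shares 44 of its 5468 bases with AC108866.1. CENPT-233 shares 297 bases with TSNAXIP1, and PLK1-202 shares 156 with AC008870.3. Whether any neighbour's reads entered a member's count was not tested.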

How the data were processed

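RNA of PLC/PRF/5 cells was sequenced in 3 siSLU7 and 3 siGL2 libraries. Per the submitters' processing notes the tools were kallisto 0.46.1, sleuth 0.30.0, Trimmomatic 0.38 and FastQC 0.11.8, with the GRCh38 build. For the annotation release and the strand setting, the sources used here give no entry. Per the file headers, the deposited tables give each transcript's length, effective length, estimated counts and TPM, and the authors' TPM values are corrected for length and library size.

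Estimated counts were summed per gene, rounded to whole numbers and filtered with edgeR's filterByExpr (at least 10 counts). They were TMM-scaled and tested with edgeR 4.0.16 in R 4.3.3 by the quasi-likelihood test, siSLU7 against siGL2, with p-values adjusted over all 17109 genes tested. The same was done per transcript, and diffSpliceDGE tested the use of transcripts and of transcript types within genes. TPM was tested with limma 3.58.1 on log2(TPM + 1), and DESeq2 1.42.0 was an alternative. A fold change of TPM is on that scale and understates the change of low genes. The scripts were tested on simulated counts with known changes. Smaller libraries (5191452 counts in the smallest) give wider error. Intervals of shares cover counting error only.

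Members and lists were chosen with earlier results of these data known. Named in full are members past the threshold and, in each role, the 3 with the smallest p. Other members are named by value because all 56 are accounted for, and of the other mitosis genes called, 4 are named by rule (lowest p) and 10 were added after their values were seen, as were the transcripts whose sequences are shown. Of the 482 transcripts, 479 matched GENCODE 29 (GRCh38), which gave coordinates, structures and splice-site sequences. Promoter sequences are RefSeq's (GRCh38.p14) and matched 46 of 56 symbols. Same-numbered libraries did not deviate together, so numbers were not used as pairs. Figures were drawn with matplotlib 3.10.9 in Python 3.11.15.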

Additional observations from a re-analysis of the deposited data

How the results depend on the processing

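The count of members called higher was 8 as reported and 20 without siSLU7 replicate 3 and siGL2 replicate 1 together, 24 by limma on log2(TPM + 1), 0 with the replicate block, 0 by glmTreat against a 1.5-fold change and between 0 and 12 with each library left out in turn. The count called lower was 2 as reported, 1 with the stricter filter, 1 with offsets for average transcript length, 1 with offsets for GC content and length, 0 with the replicate block, 0 by limma on log2(TPM + 1), 0 by glmTreat and between 0 and 2 with each library left out. Over all genes, 2374 were called as reported, 5247 without both libraries, 966 with the length offsets, 36 by glmTreat, 0 with the replicate block and between 0 and 4455 with each library left out. With the block, 15 members were higher and 2 lower at an unadjusted p under 0.05, where 4210 of all 17109 genes passed in either direction. By glmTreat 5 members were higher and 1 lower at that level, where 2179 of 17109 genes passed. Same-numbered libraries correlated in their deviations at -0.41, 0.11 and -0.37, so their numbers do not pair them.

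Of 17 alternatives, SPC24 and MAD2L1 were called in 12 each, SGO2 in 10, CDCA8, ZW10, CENPC and TPX2 in 9 each, ZWINT and NCAPH in 8 each and MAD1L1 in 6. Of the 10 members called, MAD1L1 alone changed sign, in 1 of the 17 alternatives. Over all 56, the sign differed from that reported in 10 members without both libraries, in 10 on log2(TPM + 1), in 6 with the length offsets, in 6 with the GC and length offsets, in 2 with no filter, in 2 to 6 with each library left out and in 0 under the other 6. Of the members named by the rule, MAD1L1 lay at 0.091 by limma on log2(TPM + 1). NUSAP1 lay between -0.10 (without siGL2 replicate 2) and 0.37 (without siGL2 replicate 1) with each library left out. HMMR lay between -0.19 and 0.20 with each library left out (without siGL2 replicate 3 and replicate 1), at 0.06 without siSLU7 replicate 3, at 0.32 without both libraries and at 0.49 by limma on log2(TPM + 1).

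No member transcript passed alone, except 1 lower with no filter. Class use called 4 members as reported, 0 with the replicate block, 2 by limma diffSplice and between 0 and 3 with each library left out. Over all genes it called 114, 11, 400 and between 24 and 326 in these settings. Transcript use called 4 as reported, 1 with the replicate block (CENPO), 0 by limma diffSplice and between 1 and 6 with each library left out. Over all genes it called 229, 86, 186 and between 149 and 741. The 6 and the 741 both arose without siGL2 replicate 1. The retained-intron comparisons were repeated in ways chosen after seeing the data: between 16 and 19 of 32 members had separate, higher shares with each library left out, where 28.7% to 33.9% of all genes had, and the members' non-coding share was higher in siSLU7 by 2.76 to 4.91 percentage points. These counts cover 3 libraries a group of 5191452 to 8693977 counts, so transcripts with few counts, such as those at 0 in a whole group, are limited by depth and by how the quantifier splits reads between near-identical transcripts. The cause of these shifts was not tested.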
